A study of Mus musculus with 21 samples.

Results

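The comparison set the 6 arrays of parts 6 and 7 of the mouse presomitic mesoderm (PSM) against the 6 arrays of parts 3 and 4, which makes 12 of the 21 arrays of the series. The members were chosen by the part number in each sample's title and by no measured value. The PSM is the unsegmented mesoderm beside the caudal neural tube. Cells enter it from the tailbud, oscillate under Notch, Wnt and FGF signals, and leave it as somites when a boundary forms at its front. Tbx6, Hes7 and the Delta ligands are known for the unsegmented tissue, and Mesp2, Ripply2, Meox and Pax3 genes for the forming and formed somite.

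All groups were untreated CD-1 embryos, an outbred mouse strain, given as E8.5 by the stage label and as 9.0 days post-coitus by the dissection protocol. After pancreatin at 2 mg/ml for 1 min, ectoderm, endoderm and lateral plate were dissected away and each PSM was divided into 7 pieces with 3 arrays each. The labels name a course from tailbud to somite but do not say which number lies at which end, so positions are given by number. According to the design text the PSM of both sides of 1 embryo was used, plus that of a further embryo, without saying which arrays belong together. Some arrays therefore share an embryo, and every p-value reflects array-to-array spread alone. Part 5, between the sides compared, and parts 1 and 2 are used only to place the change.

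Values are log2(signal + 16) of the authors' MAS5 intensities for the probe set with the highest mean per gene, so that a signal of 0 reads 4 and changes of low genes are understated. Arrays had mean signals of 151 to 154 and median signals of 12.9 to 13.7, and MAS5 scaling hides a change shared by most genes. The log2 ratio of 3' to 5' actin probe sets, a measure of transcript shortening, had a median of 3.87 in parts 3 and 4 (3.09 to 4.29) and of 3.69 in parts 6 and 7 (3.30 to 4.0). No array held the values of another. Across 12141 genes, which are not independent replicates, 8 of the 12 arrays correlated better with the mean of a neighbouring part than with the rest of their own. The gap was largest for replicate 2 of part 7, at 0.705 with part 6 and 0.388 with part 7. Replicate 3 of part 7 was at 0.434 with part 6 and 0.425 with part 7. Genes named below whose call between the sides changed without replicate 2 of part 7 are given with and without it.

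The values of 7 somite and 6 presomitic markers were compared between the sides. These markers were chosen with earlier results of these data known, and several recur among the largest changes and in the lists below. They are therefore no independent check of the pieces. All 7 somite markers (Meox1, Meox2, Tcf15, Uncx, Tbx18, Pax3 and Aldh1a2) were higher in parts 6 and 7. For each of them every array of parts 6 and 7 lay above every array of parts 3 and 4, beside 2.72% of all genes tested. Of the 6 presomitic markers, Tbx6, Hes7, Dll1 and Dll3 were lower in parts 6 and 7 with no overlap between arrays. Msgn1 (a difference of -0.59 ± 0.24, SE, adjusted p = 0.15) and Lfng (0.20 ± 0.31, adjusted p = 0.82) did not pass limma's test. Msgn1 had a mean of only 5.02 in parts 3 and 4, where a signal of 0 reads 4. Whether this low level limited its difference was not tested.

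Expression differed in both directions and by similar numbers of genes. Of 12141 genes tested with limma in a fit over all 21 arrays, with Benjamini-Hochberg adjustment and a threshold of 0.05, 518 were higher in parts 6 and 7 (4.27%) and 548 were lower (4.51%). The median fold was 1.62 among the former and 1.67 among the latter, and 308 genes changed by 2-fold or more, 150 up and 158 down. The median difference over all genes was 0.01 log2 units. For 1057 of the 1066 genes the sign was the same in all 4 pairings of single parts and in all 3 replicate numbers. Every array of parts 6 and 7 lay above every array of parts 3 and 4 for 330 genes (2.72% of those tested) and below for 320 (2.64%). Of those, 294 and 296 had passed the test, and 60 genes separated completely without passing it. The count fell to 540 without replicate 1 and to 545 without replicate 2, and was 1043 without replicate 2 of part 7 alone. Bulk pieces cannot tell fewer expressing cells from less RNA per cell, here and in all that follows.

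**Figure D1:**
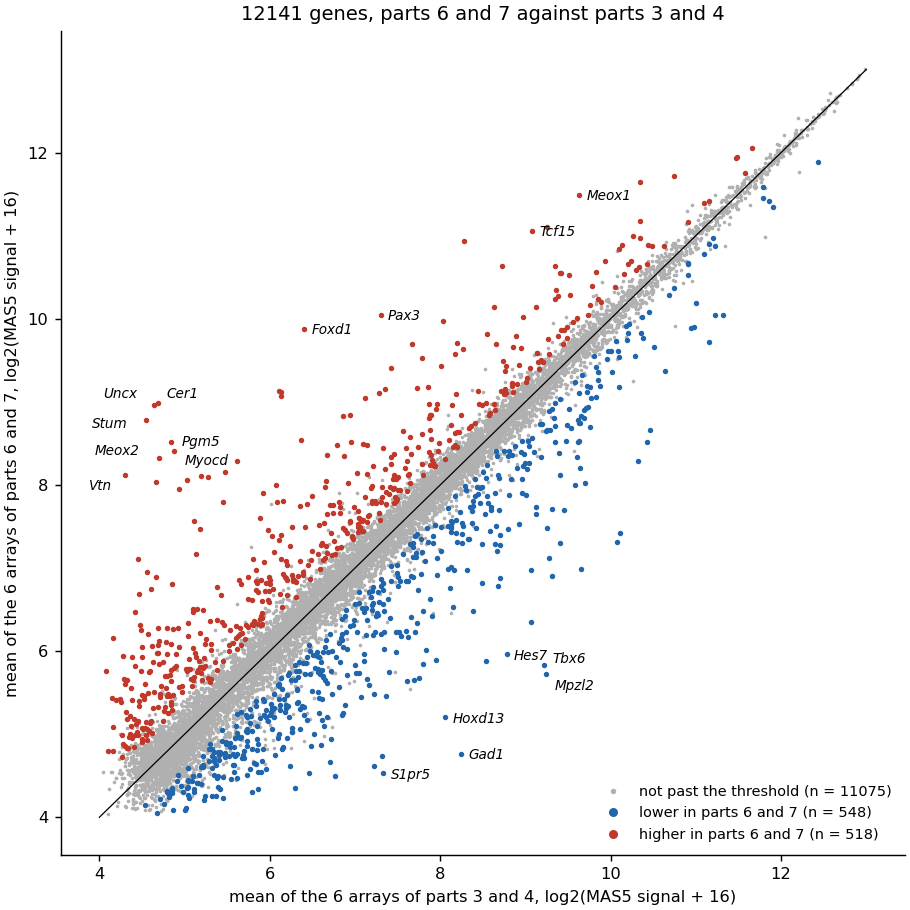
Mean log2(MAS5 signal + 16) of each of 12141 genes in the 6 arrays of parts 3 and 4 (x axis) and of parts 6 and 7 (y axis); red points are the 518 genes higher in parts 6 and 7, blue points the 548 lower, grey points those not past an adjusted p of 0.05, and the line marks equal means. Uncx, Cer1 and Stum lie near the left edge and far above the line, while Mpzl2, Gad1 and Tbx6 lie farthest below it.

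The largest rises began from signals at or near 0 in parts 3 and 4. Uncx, a homeobox gene of the caudal somite compartment, read 4.52, 4.02 and 4.04 in part 3 and 5.12, 4.90 and 5.23 in part 4. It read 8.84, 9.23 and 8.72 in part 6 and 9.38, 8.98 and 8.6 in part 7, so that all 6 arrays stood far above all others. The difference was 4.32 ± 0.25 log2 units (SE), or 19.98-fold (limma, adjusted p = 6.71e-10). Cer1, a secreted BMP and Nodal antagonist expressed in the forming somite, ranged from 4.30 to 5.76 (median 4.52) in parts 3 and 4 and from 7.79 to 9.89 (median 9.09) in parts 6 and 7. The groups did not overlap, and the difference was 4.30 ± 0.32 (SE, 19.7-fold, limma adjusted p = 1.43e-08). Stum, which encodes a membrane protein first described in fly mechanosensory neurons, varied least among the leading genes. Its 6 arrays of parts 6 and 7 lay between 8.65 and 8.96, against 4.08 to 5.33 in parts 3 and 4, a difference of 4.23 ± 0.12 (SE, 18.8-fold, limma adjusted p = 6.42e-15).

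Besides Uncx, 6 transcription factors were among the 15 largest rises. Meox2, a homeobox partner of Meox1, lay between 4.25 and 5.53 (median 4.65) in parts 3 and 4. In part 6 it read 7.85, 8.08 and 7.48 and in part 7 9.63, 7.70 and 9.18, the middle value being the array that resembled part 6. The difference was 3.62 ± 0.25 (SE, 12.3-fold, limma adjusted p = 6.69e-09). Foxd1, a forkhead gene, ranged from 5.87 to 7.39 and then from 9.47 to 10.25 (difference 3.47 ± 0.29, SE). Dmrt2, needed for somite patterning and the myotome, read 8.2, 8.70 and 8.53 in part 6 and the lower 7.24, 8.08 and 7.46 in part 7, against 4.18 to 5.49 in parts 3 and 4 (difference 3.37 ± 0.24, SE). Tbx18, a T-box gene of the rostral somite compartment, had 1 high array in part 4, replicate 2, at 7.14 beside 4.11 and 4.82, yet all arrays of parts 6 and 7 lay above it, from 7.30 to 8.64 (difference 3.02 ± 0.36, SE). Sox6, a chondrogenic factor in later sclerotome, rose from a median of 6.06 to 9.32 (difference 2.99 ± 0.20, SE), and Prrx2, a paired-type homeobox gene of mesenchyme, from 6.09 to 9.06 (difference 2.93 ± 0.29, SE).

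The other large rises were not transcription factors of segmentation. Vtn, which encodes the matrix protein vitronectin, lay between 4.07 and 4.58 in parts 3 and 4 and between 7.69 and 8.91 in parts 6 and 7 (difference 3.82 ± 0.20, SE, 14.1-fold). Pgm5, a phosphoglucomutase relative found at cell adhesions, ranged from 4.22 to 5.52 and from 8.05 to 8.78 (difference 3.67 ± 0.22, SE). Myocd, the coactivator of serum response factor known for smooth and cardiac muscle, ranged from 4.56 to 5.39 and from 7.33 to 9.07 (difference 3.54 ± 0.23, SE). The arrays of the sides did not overlap for any of these genes. Snap91, a clathrin adaptor of synaptic vesicles, Plch1, a phospholipase C, and Pcp4, a calmodulin regulator, differed by 3.04 ± 0.20, 3.02 ± 0.15 and 2.92 ± 0.23 (SE). All 15 genes separated the 12 arrays without overlap, beside 2.72% of all genes tested. They were picked on these same arrays for large differences of one sign, which favours such separation.

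**Figure D2:**
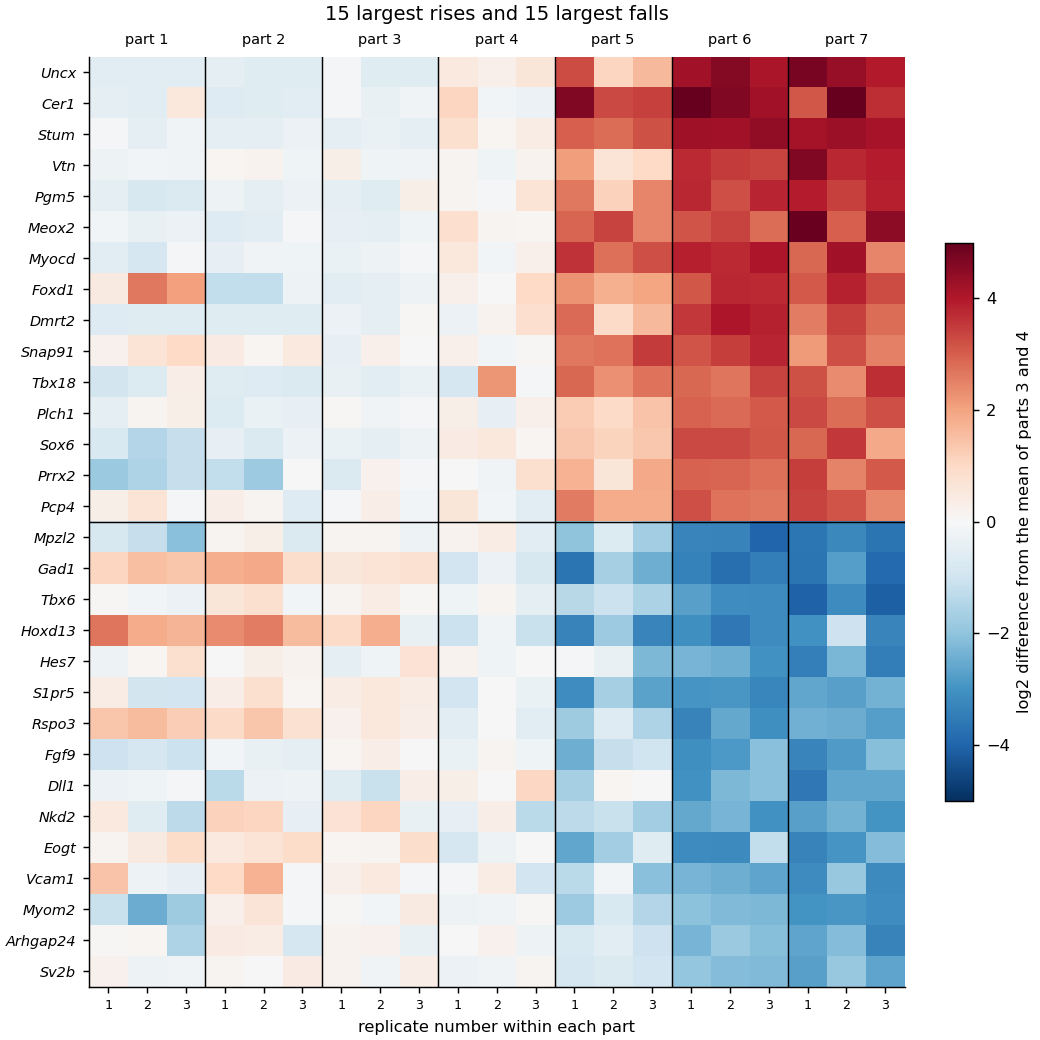
Log2 difference of each of the 21 arrays from the gene's mean in parts 3 and 4, for the 15 largest rises (top, Uncx at 4.32 to Pcp4 at 2.92) and the 15 largest falls (bottom, Mpzl2 at -3.51 to Sv2b at -2.26); columns are replicates 1 to 3 of parts 1 to 7, red is higher and blue lower. Replicate 2 of part 4 stands out for Tbx18, and replicate 2 of part 7 for Hoxd13.

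The largest falls joined segmentation regulators with genes of other kinds. Tbx6, the T-box factor that specifies paraxial mesoderm, read 9.35, 9.57 and 9.26 in part 3 and 9.00, 9.34 and 8.76 in part 4. It fell to 6.48, 6.10 and 6.06 in part 6 and to 5.16, 6.05 and 5.13 in part 7, with no overlap. The difference was -3.38 ± 0.18 (SE), a 10.4-fold fall (limma, adjusted p = 1.72e-10). Hes7, the oscillating repressor of the segmentation clock, ranged from 8.31 to 9.51 (median 8.68) and then from 5.33 to 6.5 (median 6.05), a difference of -2.82 ± 0.31 (SE, limma adjusted p = 3.20e-06). Dll1, the Notch ligand of the PSM, ranged from 8.98 to 11.16 and then from 6.54 to 8.01 (difference -2.69 ± 0.32, SE). Dll3, an inhibitory relative of Dll1, was even in parts 3 and 4, at 10.26 to 10.62. It read 8.95, 8.93 and 9.02 in part 6, and 7.66, 8.93 and 7.63 in part 7, where the array resembling part 6 again kept the part 6 level (difference -1.91 ± 0.19, SE).

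Mpzl2, an adhesion molecule of the immunoglobulin family, had the largest fall of all genes tested. It lay between 8.68 and 9.62 (median 9.37) in parts 3 and 4 and between 5.29 and 6.00 (median 5.77) in parts 6 and 7, a difference of -3.51 ± 0.25 (SE, 11.4-fold, limma adjusted p = 1.28e-08). Gad1, which makes the transmitter GABA from glutamate, read 8.83, 8.93 and 9.03 in part 3, 7.30, 7.97 and 7.44 in part 4, and between 4.37 and 5.49 in parts 6 and 7. The sides did not overlap, part 4 was already below part 3 in every array, and the difference between sides was -3.49 ± 0.27 (SE, 11.2-fold). A second, weaker probe set of Gad1 differed by only -0.18. S1pr5, a receptor for sphingosine 1-phosphate, fell by 2.80 ± 0.25 (SE), and Vcam1, an adhesion receptor for integrins, by 2.61 ± 0.38 (SE), with another Vcam1 probe set at -0.41.

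Rspo3 and Fgf9, both secreted, and the Wnt inhibitor Nkd2 were also among the 15 largest falls. Rspo3, which strengthens Wnt signalling, was at 9.52 to 10.61 in parts 3 and 4 and at 6.75 to 7.68 in parts 6 and 7 (difference -2.77 ± 0.18, SE, limma adjusted p = 2.57e-09), while a weaker probe set of the gene differed by -0.62 and missed the threshold. Fgf9, an FGF ligand, was at 8.73 to 9.39 and at 5.76 to 6.99 (difference -2.72 ± 0.23, SE). Nkd2, which acts by negative feedback, was at 7.20 to 9.62 and at 5.50 to 6.21 (difference -2.66 ± 0.34, SE). Of its 3 other probe sets 2 also passed, at -2.22 and -1.86, and the weakest was at -0.27. Arrays of the sides did not overlap for any of the chosen probe sets of these 3 genes. Eogt, which adds N-acetylglucosamine to extracellular EGF repeats, fell by 2.66 ± 0.34 (SE). Arhgap24, a Rac GTPase-activating protein, fell by 2.41 ± 0.27, Myom2, a sarcomere protein, by 2.58 ± 0.20, and Sv2b, a synaptic vesicle protein, by 2.26 ± 0.15 (SE). Of the 15 largest falls, picked in the same way as the rises, 14 separated the 12 arrays without overlap, beside 2.64% of all genes tested. The other one, Hoxd13, is described with the Hox genes.

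Promoter windows are shown for 3 of the leading rises, 2 of the leading falls and the segment boundary gene Ripply2, to set beside each other genes with high, low and mixed values in parts 6 and 7. The difference of Ripply2 between the sides did not pass. The genes were chosen after the values were seen. Each window is the 250 bases before the RefSeq start of the gene in GRCm38.p6, in the gene's own direction. Capitals mark matches, on either strand, to an E-box (CANNTG), a T-box site (GGTGTG), an Rbpj site (TGGGAA), a Lef and Tcf site (CTTTGA), the longer form of the GATA site (AGATAA), or a pair of retinoic acid receptor sites (AGGTCA) with a gap of 5 bases. No matches overlapped in these windows. Meox2 lies at chr12:37108290-37108539 on the plus strand, Cer1 at chr4:82885152-82885401 on the minus strand, Dmrt2 at chr19:25672161-25672410 on the plus strand, Ripply2 at chr9:87015287-87015536 on the plus strand, Hes7 at chr11:69120203-69120452 on the plus strand, and Gad1 at chr2:70561879-70562128 on the plus strand.
Meox2: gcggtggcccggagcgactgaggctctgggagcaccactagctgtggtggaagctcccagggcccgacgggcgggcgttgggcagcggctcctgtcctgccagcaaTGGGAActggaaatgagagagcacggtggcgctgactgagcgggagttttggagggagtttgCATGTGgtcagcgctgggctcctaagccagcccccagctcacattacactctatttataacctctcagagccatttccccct
Cer1: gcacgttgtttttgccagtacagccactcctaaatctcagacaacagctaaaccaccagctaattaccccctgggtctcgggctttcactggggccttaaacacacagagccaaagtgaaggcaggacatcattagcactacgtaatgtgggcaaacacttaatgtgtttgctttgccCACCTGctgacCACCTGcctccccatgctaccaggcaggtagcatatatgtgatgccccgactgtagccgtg
Dmrt2: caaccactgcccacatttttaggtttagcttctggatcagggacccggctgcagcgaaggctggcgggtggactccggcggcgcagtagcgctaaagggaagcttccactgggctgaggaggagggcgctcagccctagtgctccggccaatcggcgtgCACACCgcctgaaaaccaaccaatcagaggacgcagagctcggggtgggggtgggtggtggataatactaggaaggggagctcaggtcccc
Ripply2: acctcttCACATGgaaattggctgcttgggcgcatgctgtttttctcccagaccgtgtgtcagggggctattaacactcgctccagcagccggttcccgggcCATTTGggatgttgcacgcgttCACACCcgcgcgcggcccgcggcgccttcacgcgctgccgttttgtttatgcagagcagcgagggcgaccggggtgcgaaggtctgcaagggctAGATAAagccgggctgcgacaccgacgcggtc
Hes7: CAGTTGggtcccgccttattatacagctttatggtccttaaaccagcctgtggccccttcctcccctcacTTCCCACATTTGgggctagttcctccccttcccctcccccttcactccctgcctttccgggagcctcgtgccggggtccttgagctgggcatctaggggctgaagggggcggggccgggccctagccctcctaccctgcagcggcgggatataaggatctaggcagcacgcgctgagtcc
Gad1: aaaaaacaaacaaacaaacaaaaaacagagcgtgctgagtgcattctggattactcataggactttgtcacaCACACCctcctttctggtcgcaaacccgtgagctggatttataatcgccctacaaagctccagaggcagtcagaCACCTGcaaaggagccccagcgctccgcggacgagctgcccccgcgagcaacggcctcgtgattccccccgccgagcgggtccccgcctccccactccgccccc

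The shares that follow are of genes, counted once if any of their windows held a match, with 32851 windows for 27025 genes. An E-box match was found for 64.4% of the 410 genes higher in parts 6 and 7 and 63.9% of the 421 genes lower there. It was found for 61.3% of the 9839 genes tested and 69.3% of all 27025 genes with a window. A T-box site was found for 90 genes of the first set, for 20.7% of the second, for 17.9% of genes tested and for 18.3% of all. An Rbpj site stood in 25.6%, 26.6%, 23.5% and 24.1% of these sets, a Lef and Tcf site in 11.2%, 13.8%, 12.6% and 15.8%, and a GATA site in 5.37%, 7.36%, 6.9% and 11.4%. The paired sites occurred in 3 of the 27025 and in no gene tested. Of the genes past the threshold, 831 had a window. A match is a run of letters, and no test was made of these shares.

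**Figure D3:**
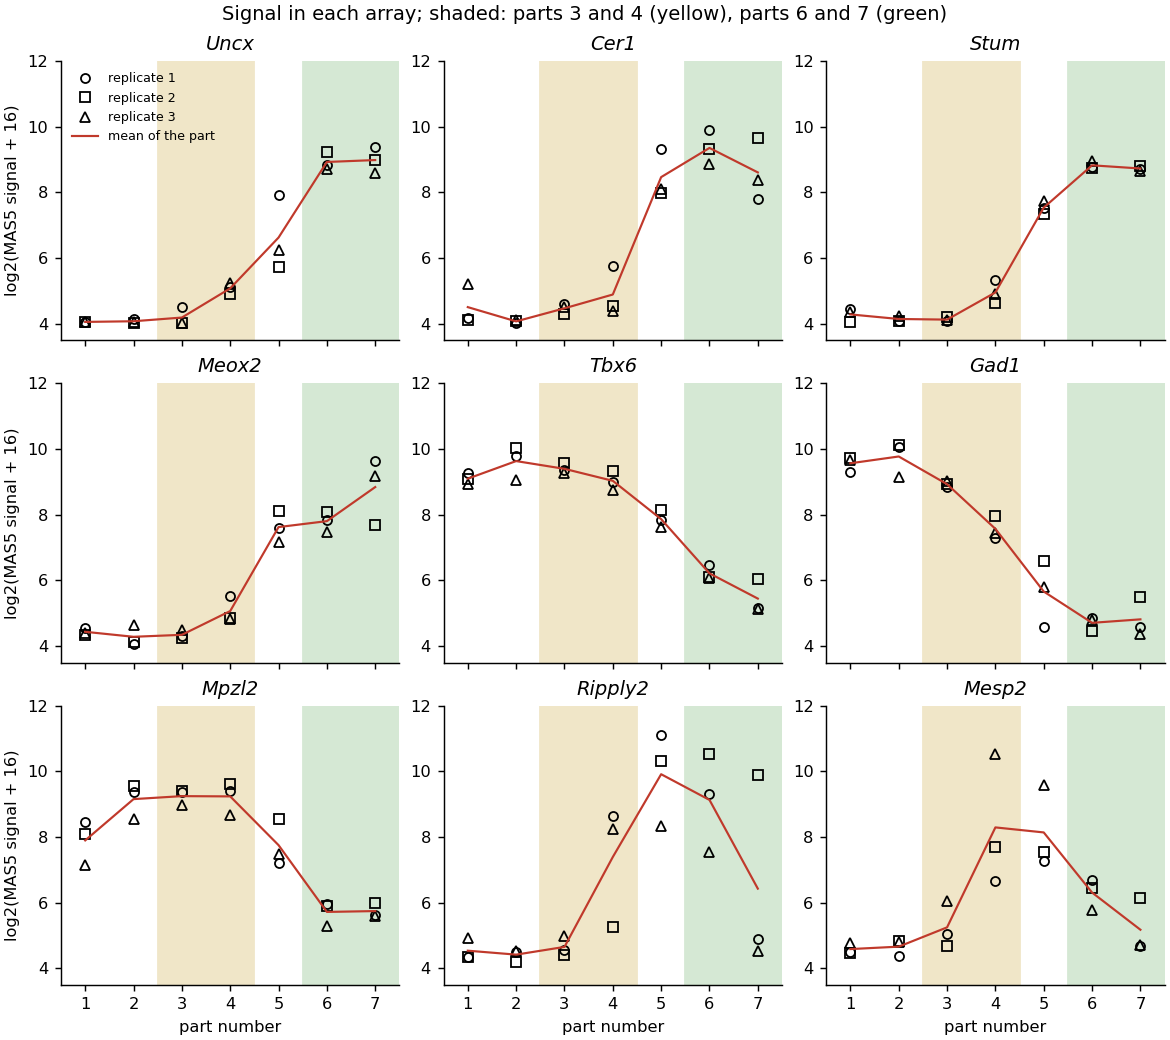
Log2(MAS5 signal + 16) of 9 genes in each array (symbols, 3 replicates per part) against the part number, with the mean of each part as a line; parts 3 and 4 are shaded yellow and parts 6 and 7 green. Uncx and Meox2 stay at or below 5.53 through part 4, Tbx6, Gad1 and Mpzl2 fall between parts 4 and 6, and Ripply2 and Mesp2 spread widely within part 4 (Mesp2 from 6.67 to 10.51).

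Genes of the segment boundary did not move as a group. Counts for this and the following lists stand beside the 4.27% of all genes tested that were higher and the 4.51% that were lower. Of 14 boundary genes tested, 5 were higher in parts 6 and 7, 1 was lower and 8 did not pass, with a median difference of -0.03. The 5 were Uncx, Cer1, Dmrt2, Tbx18 and Efnb2, the last an ephrin ligand of the caudal somite, at 5.38 to 9.39 and then 8.47 to 10.48 (difference 2.02 ± 0.39, SE). Mesp2, the factor that sets the boundary and the rostral identity of the next somite, read 5.03, 4.67 and 6.04 in part 3 and 6.67, 7.69 and 10.51 in part 4. It read 6.70, 6.43 and 5.78 in part 6, and 4.69, 6.13 and 4.70 in part 7. The sides overlapped, and the difference of -1.03 ± 0.50 (SE) did not pass (limma, adjusted p = 0.27). Ripply2, which ends Mesp2 expression, read 4.55, 4.42 and 4.99 in part 3 and 8.65, 5.27 and 8.24 in part 4. It read 9.32, 10.52 and 7.54 in part 6, and 4.88, 9.87 and 4.52 in part 7. The array of part 7 that resembled part 6 was thus the one with high Ripply2. The difference between the sides was 1.76 ± 0.77 (SE, limma adjusted p = 0.20) with that array and 0.90 ± 0.58 (SE, limma adjusted p = 0.436) without it, and it passed in neither fit. Ripply2 was highest in part 5, at 11.09, 10.31 and 8.32, above parts 3 and 4 by 3.89 (limma, adjusted p = 0.0365).

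Of 11 somite polarity genes tested, 6 were higher, 2 were lower and 3 did not pass, with a median of 0.98. Beside Uncx, Tbx18, Cer1, Efnb2 and the Notch target Heyl, the ephrin receptor Ephb3 rose by 0.98 ± 0.15 (SE), and the 2 lower genes were Dll1 and Kitl, the ligand of the Kit receptor, at -1.42 ± 0.17 (SE). Both a caudal gene, Uncx, and a rostral gene, Tbx18, were thus among the 15 largest rises.

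Among 15 genes of somite and paraxial differentiation that were tested, 10 were higher in parts 6 and 7 and none was lower, with a median of 1.86. Meox1 was already at 9.35, 7.48 and 8.65 in part 3 and 11.11, 10.44 and 10.76 in part 4, and it lay between 11.11 and 11.67 in parts 6 and 7 (difference 1.86 ± 0.27, SE, limma adjusted p = 8.68e-05). Tcf15, a factor of somite epithelium, ranged from 8.0 to 10.07 and from 10.59 to 11.31 (difference 1.98 ± 0.20, SE). Aldh1a2, the enzyme that makes retinoic acid, ranged from 7.39 to 10.01 and from 10.22 to 10.91 (difference 1.91 ± 0.21, SE). Pax3, a factor of the dermomyotome, ranged from 6.40 to 8.66 and from 9.84 to 10.18 (difference 2.74 ± 0.25, SE). None of these overlapped between sides, though Meox1 was separated only beyond the second decimal. Foxc2, a forkhead gene of paraxial mesoderm, overlapped and differed by 0.74 ± 0.20 (SE, limma adjusted p = 0.0217). It lost the call without replicate 1, without replicate 3 and without any of 4 single arrays, replicate 2 of part 7 among them.

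The derivatives of the somite were represented unevenly. Of 12 dermomyotome and early muscle genes tested, 4 were higher (Dmrt2, Pax3, Met and Sim1), Mef2c was lower and 7 did not pass, with a median of 0.25. Without replicate 2 of part 7 the higher genes numbered 5, with Myf5 added. Met, the receptor for hepatocyte growth factor, ranged from 6.21 to 9.11 and from 9.50 to 10.40, and Sim1, a helix-loop-helix factor of the lateral dermomyotome, from 5.76 to 6.52 and from 7.41 to 8.44. Neither overlapped, with differences of 1.93 ± 0.26 and 1.93 ± 0.15 (SE). Myod1, the muscle determination factor, differed by 0.03 ± 0.17 (SE). Of 12 sclerotome and cartilage genes tested, 5 were higher (Foxd1, Sox6, Twist1, Foxc2 and Sox5), none was lower and 7 did not pass, with a median of 0.42. Over the alternatives that count of 5 ran from 2 to 6, and it was 3 without replicate 2 of part 7 and 2 without replicate 1. Col2a1 and Acan, matrix genes of cartilage, differed by -0.03 and -0.07.

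Posterior PSM genes fell together. Of 15 tested, 11 were lower in parts 6 and 7 and none was higher, with a median of -1.52, beside 4.51% of all genes lower and a median of 0.01. Beside Tbx6, Hes7, Dll1, Dll3 and Rspo3, Cdx4, a homeobox gene of the posterior body, ranged from 6.09 to 7.58 in parts 3 and 4 and from 4.20 to 5.79 in parts 6 and 7, its high array there being replicate 2 of part 7 (difference -2.04 ± 0.29, SE). Il17rd, an FGF antagonist, ranged from 8.78 to 10.36 and from 7.16 to 9.02, with overlap (difference -1.59 ± 0.28, SE). The 4 that did not pass were Msgn1, Fgf8, Fgf17 and Wnt3a, with differences from -0.65 to -0.33. Their means in parts 3 and 4 were only 4.72 to 5.02, where a signal of 0 reads 4. Whether these low levels limited their differences was not tested. Of 21 tailbud progenitor genes, 8 were lower and 1 was higher, with a median of -0.60. Wnt5a, a ligand of the noncanonical Wnt pathway, fell from between 8.76 and 9.47 to between 6.80 and 8.06 without overlap (difference -1.78 ± 0.21, SE). Fgf3 fell by 1.62 ± 0.29 (SE). Sall4, a pluripotency-associated zinc finger gene, was the 1 gene higher, at 0.46 ± 0.12 (SE). For Sall4 the rise lay in part 6, at 10.99, 10.96 and 11.2, and in replicate 2 of part 7, at 10.79. Replicates 1 and 3 of part 7 lay below the lowest array of parts 3 and 4, at 10.04.

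**Figure D4:**
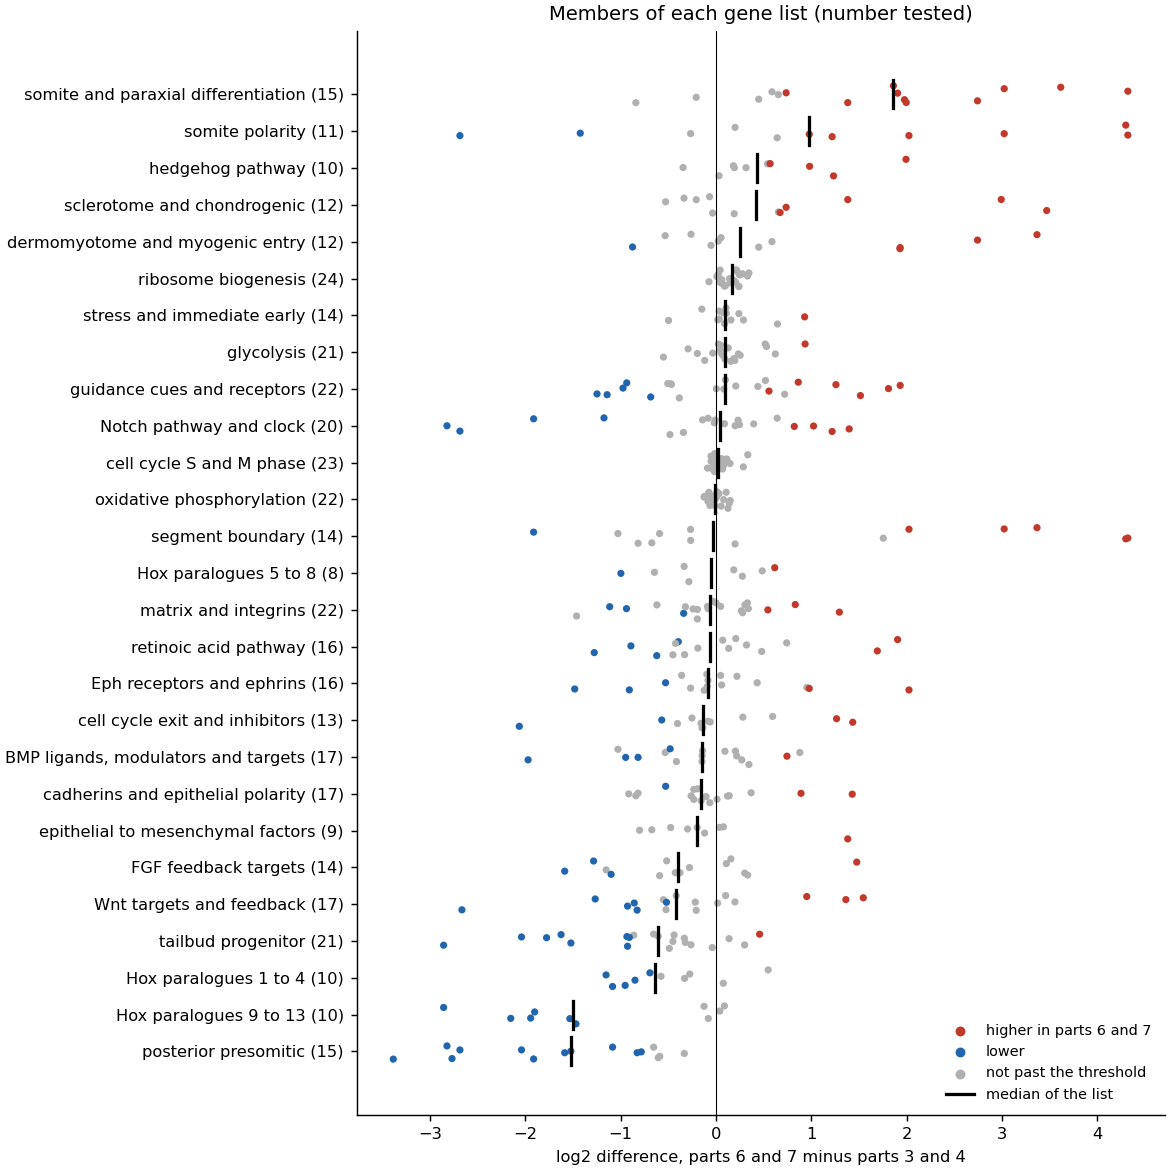
Log2 difference (parts 6 and 7 minus parts 3 and 4) of each tested member of 27 gene lists, with the number tested in brackets; red points are higher, blue lower, grey not past an adjusted p of 0.05, and black bars mark each list's median. The somite list lies highest (median 1.86), the posterior presomitic list lowest (-1.52), and the cell cycle and oxidative phosphorylation lists cluster around 0.

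Hox genes differed by paralogue number, that is by position along their clusters. Of the 10 genes of paralogues 9 to 13 tested, 6 were lower in parts 6 and 7 and none was higher, with a median of -1.50. These 6 were all of paralogues 10, 11 and 13, while the 4 genes of paralogue 9 (Hoxa9, Hoxb9, Hoxc9 and Hoxd9) differed by -0.12 to 0.09 and did not pass. Hoxb9 had a mean of only 4.7 in parts 3 and 4, where a signal of 0 reads 4, and whether this limited its difference was not tested. Hoxa13, Hoxb13, Hoxc13 and Hoxd12 did not reach the table's median of 13.3 in any of the 12 arrays, so Hoxd13 alone stood for paralogue 13. Hoxd13 read 9.02, 9.88 and 7.69 in part 3, 6.97, 7.87 and 6.93 in part 4, 4.99, 4.5 and 4.92 in part 6, and 5.02, 7.04 and 4.77 in part 7. The 7.04 of replicate 2 of part 7 overlapped part 4, and the difference was -2.86 ± 0.40 (SE, 7.24-fold, limma adjusted p = 4.93e-05). Hoxd10 ranged from 8.60 to 9.78 and from 5.49 to 8.04 (difference -2.15 ± 0.31, SE), and Hoxa11 from 6.79 to 8.02 and from 4.10 to 6.42 (difference -1.90 ± 0.31, SE). Neither overlapped.

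In the middle of the clusters, paralogues 5 to 8, 1 of 8 genes tested was higher (Hoxb6, 0.62 ± 0.14, SE) and 1 was lower (Hoxc5, -1.0 ± 0.14, SE), with a median of -0.05. At the other end, paralogues 1 to 4, 5 of 10 were lower and none was higher, with a median of -0.63. Hoxb1, an early gene of its cluster, ranged from 10.76 to 11.08 in parts 3 and 4 and from 9.40 to 10.21 in parts 6 and 7 without overlap (difference -1.08 ± 0.12, SE, limma adjusted p = 2.27e-06). Hoxb4, Hoxb3, Hoxc4 and Hoxa4 were also lower, with differences from -1.15 to -0.69, and that count of 5 was 3 without replicate 1 and 3 without replicate 2. Lower genes thus stood in all 3 stretches of the paralogue order, 1 of them in the middle.

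**Figure D5:**
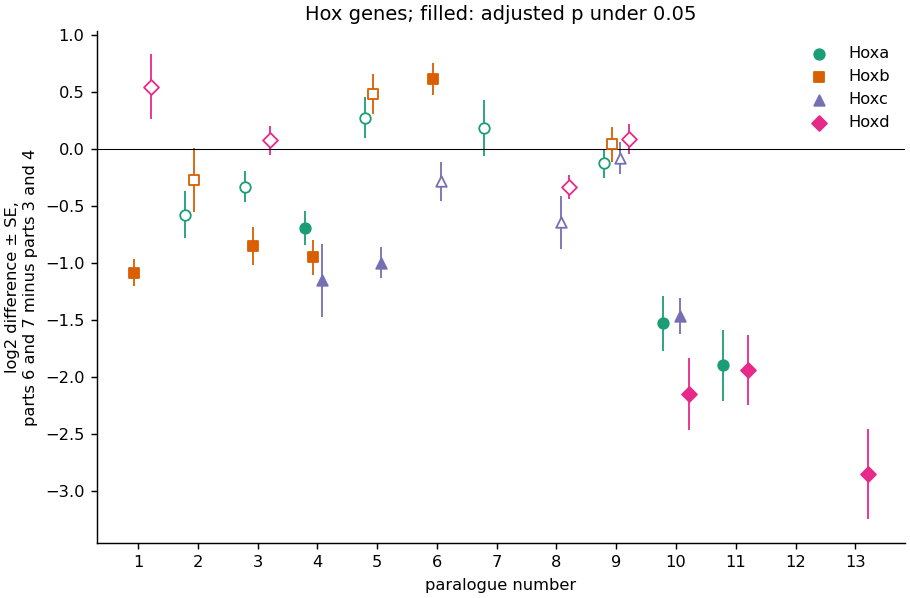
Log2 difference (parts 6 and 7 minus parts 3 and 4) with its SE for each tested Hox gene against its paralogue number, with colour and symbol by cluster; filled symbols passed an adjusted p of 0.05. Paralogue 9 lies between -0.12 and 0.09 in all 4 clusters, and paralogues 10, 11 and 13 lie between -1.47 and -2.86.

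Genes of the FGF, Wnt and Notch pathways changed in both directions. FGF signalling keeps PSM cells unsegmented and induces its own inhibitors. Of 14 such feedback targets tested, 3 were lower (Il17rd, Spred2 and Etv5), 1 was higher and 10 did not pass, with a median of -0.40. The count of lower genes was 2 without replicate 1, 1 without replicate 2 and 5 without replicate 3. Spred2, an inhibitor of Ras signalling, ranged from 9.06 to 9.68 and from 7.77 to 8.38. Spry1, an inhibitor of receptor tyrosine kinases, went the other way, from between 5.79 and 6.27 to between 7.07 and 7.88, also without overlap (difference 1.48 ± 0.11, SE, limma adjusted p = 1.79e-08). Dusp6, a phosphatase of ERK, differed by 0.30 ± 0.25 (SE). Of 17 Wnt targets and feedback genes, 6 were lower, 3 were higher and 8 did not pass, with a median of -0.42. The count of lower genes was 3 without replicate 1 and 4 without replicate 2. Axin2, a target of Wnt signalling that oscillates in the PSM, differed by 0.02 ± 0.20 (SE). The higher genes were Wif1, a secreted Wnt inhibitor (4.08 to 4.50 and then 5.26 to 6.39), Ccnd1, a cyclin of G1 phase (7.84 to 8.67 and then 9.22 to 10.09), and Myc. Wif1 and Ccnd1 did not overlap, with differences of 1.55 ± 0.16 and 1.36 ± 0.17 (SE).

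Of 20 Notch pathway and clock genes, 4 were higher, 4 were lower and 12 did not pass, with a median of 0.04. The lower ones were the ligands Dll1 and Dll3 and the feedback genes Hes7 and Nrarp. For Nrarp the difference lay in replicates 1 and 3 of part 7, at 8.2 and 8.21. Its arrays of part 6, at 10.85 to 11.02, and replicate 2 of part 7, at 11.02, were close to the 10.88 to 11.52 of parts 3 and 4. Dtx1, a ubiquitin ligase acting on Notch, was higher without overlap, at 5.06 to 5.60 and then 6.58 to 7.03 (difference 1.40 ± 0.11, SE, limma adjusted p = 5.34e-08). The target Heyl (1.22 ± 0.19, SE), the receptor Notch2 (1.02 ± 0.14) and the ligand Jag1 (0.82 ± 0.23) were the other higher genes. Lfng, which modifies Notch and oscillates, ranged from 5.16 to 6.46 and from 4.67 to 6.58.

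Of 16 retinoic acid genes tested, 2 were higher (Aldh1a2 and the orphan receptor Nr2f1, 1.69 ± 0.31, SE) and 4 were lower. The lower genes were the receptors Rarg and Rxra and the binding proteins Crabp1 and Crabp2. Rarg ranged from 6.68 to 7.23 and from 5.5 to 5.95 without overlap (difference -1.28 ± 0.14, SE), and Cyp26a1, which breaks retinoic acid down, was low on both sides (-0.45 ± 0.45, SE, not past the threshold). The count of lower genes was 1 without replicate 2. Of 10 hedgehog pathway genes, 4 were higher and none was lower, with a median of 0.43. Gli2, a transcription factor of the pathway, ranged from 7.28 to 7.63 in parts 3 and 4 and from 9.13 to 9.57 in parts 6 and 7 (difference 1.99 ± 0.13, SE, limma adjusted p = 4.14e-09). The coreceptors Boc (1.23 ± 0.13) and Cdon (0.98 ± 0.11, SE) and the ligand release gene Disp1 (0.57 ± 0.15, SE) also rose, and these 4 genes did not overlap between sides. The targets Ptch1 and Gli1 differed by -0.34 ± 0.35 and 0.19 ± 0.23 (SE) and did not pass. Of 17 BMP genes, 4 were lower, led by the ligand Bmp2 (-1.97 ± 0.32, SE), and Bmp7, another ligand, was higher (0.75 ± 0.15, SE). Without replicate 1 the 4 became 2, without replicate 2 they became 1, and Bmp7 did not pass in either.

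Of 16 Eph receptors and ephrins, 2 were higher (Efnb2 and Ephb3) and 3 were lower, the receptors Epha1, Epha5 and Ephb4. Epha1 fell from between 5.22 and 6.30 to between 4.10 and 4.54 (difference -1.48 ± 0.21, SE). Of 22 guidance genes, 6 were higher and 5 lower, with a median of 0.09. Ntn1, the cue netrin-1, ranged from 5.86 to 8.29 and from 8.81 to 9.62 (difference 1.81 ± 0.25, SE), while the netrin receptors Unc5b and Unc5c were lower (-1.25 ± 0.18 and -1.14 ± 0.20, SE). Cxcl12, a chemokine, was higher (1.52 ± 0.18, SE) and its receptor Cxcr4 did not pass (-0.50 ± 0.29, SE). Of 17 cadherin and polarity genes, Cdh11, a mesenchymal cadherin, ranged from 7.22 to 8.12 and from 8.49 to 9.65 (difference 1.43 ± 0.15, SE), whereas Cdh2, N-cadherin, differed by -0.23 ± 0.10 (SE) and did not pass. Pard6b was also higher and Dlg5 lower. Of 22 matrix and integrin genes, 3 were higher (Fbn2, Lamb1 and Lama5) and 3 lower (Sparc, Has2 and Fn1). Fn1, fibronectin, fell by only 0.34 ± 0.06 (SE).

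None of 22 oxidative phosphorylation genes, 23 genes of S and M phase or 24 ribosome biogenesis genes passed limma's adjusted threshold, and 3, 2 and 5 of them had an unadjusted p under 0.05. Their medians were -0.0048, 0.02 and 0.16. With a fixed replicate block, 5 ribosome biogenesis genes and 1 cell cycle gene passed, beside 1803 of all genes tested. Of 21 glycolysis genes, Aldoc alone was higher (0.94 ± 0.16, SE), close to the 4.27% of all genes tested. With that block 7 were higher, where 857 of all genes tested were. Of 13 genes of cell cycle exit, Cdkn1c, an inhibitor of cyclin-dependent kinases (1.27 ± 0.20, SE), and Gadd45b (1.44 ± 0.18) were higher, and Btg2, an antiproliferative gene (-2.06 ± 0.19), and Ccng1 (-0.57 ± 0.10) were lower. Of 14 stress genes, Jund alone was higher (0.93 ± 0.17, SE), beside the same 4.27% of all genes tested.

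Markers of neighbouring tissues were set beside these values. None of 10 blood markers (median -0.49), 12 gut endoderm or 4 neural crest markers passed limma's test. Of them 0, 2 and 0 had an unadjusted p under 0.05, beside 19.7% of all genes tested. All 14 endothelial markers tested had a difference below 0, with a median of -1.10. Egfl7 and Emcn passed the test, and 13 had an unadjusted p under 0.05, beside the same 19.7% of all genes tested. With a replicate block 13 passed, where 1803 (fixed) or 1666 (random) of all genes tested did. None passed without replicate 1 or without replicate 2, and 1 without replicate 3. The mean of the endothelial markers per array ran from 5.29 to 6.69 (median 6.28) in parts 3 and 4 and from 4.46 to 5.69 (median 5.00) in parts 6 and 7, and Pecam1 stayed below the filter. Plvap, an endothelial gene, ranged from 6.10 to 8.22 and from 4.20 to 7.16. Of 8 neural tube markers, Ncam1 (1.02 ± 0.09, SE) and Olig2 (0.69 ± 0.14, SE) were higher and Fabp7 was lower (-1.89 ± 0.34, SE). Olig2 read 5.05, 4.97 and 5.6 in part 6 but 4.16, 4.94 and 4.03 in part 7, against 4.01 to 4.26 in parts 3 and 4. Its 4.94 came from the array that resembled part 6. Sox1, Dbx1 and Neurog2 did not reach the table's median of 13.3 in any of the 12 arrays. Of 5 surface ectoderm and 6 lateral and intermediate mesoderm markers, Grhl3 (-0.74 ± 0.16, SE) and Osr1 (-0.98 ± 0.29, SE) were lower. The part of these markers in the differences above was not tested.

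Part 5, which lies between the sides by number, placed the change. Among genes higher in parts 6 and 7, the median gene had made 36.8% of its change by part 5, and among genes lower there 61.1%. No test was made of these shares, which rest on 3 arrays of part 5. Over all genes tested, replicates 1 and 3 of part 5 correlated better with part 6 (0.446 and 0.341) than with the rest of part 5 (0.264 and 0.270). Replicate 2 correlated best with part 5, at 0.388. Against parts 3 and 4, 115 genes were higher in part 5 (0.947%) and 138 lower (1.14%). Against part 5, 138 genes were higher in parts 6 and 7 (1.14%) and 63 lower (0.519%). Both comparisons use the arrays of part 5. The first count of 253 in all was 36 without replicate 1, 91 without replicate 2 and 163 without replicate 3, and the second of 201 was 33, 82 and 119.

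Some genes had changed by part 5. Cer1 read 9.32, 7.97 and 8.10 there, above all arrays of parts 3 and 4 by a mean of 3.78 (limma, adjusted p = 1.21e-05), and then differed by 0.52 from parts 6 and 7 (adjusted p = 0.65). Zic5, a zinc finger gene, read 8.97, 8.91 and 9.16 in part 5 and 4.19 to 7.43 in parts 3 and 4 (3.40, adjusted p = 8.03e-05). Myocd read 8.5, 7.63 and 8.09 in part 5, with 90.4% of its change made. Among the falls, Btg2 read 5.97, 6.22 and 5.94 in part 5, down by 1.91 from parts 3 and 4 (adjusted p = 0.000124), and S1pr5 read 4.23, 5.67 and 4.67, with 88.3% of its change made. Gad1 and Hoxd13 had fallen by 2.59 and 2.82 by part 5.

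Other genes had levels in part 5 close to those of parts 3 and 4. Itih5, which stabilises hyaluronan, read 5.00, 4.61 and 5.82 in part 5, within the 4.89 to 5.94 of parts 3 and 4 but for 1 array, and 6.99 to 9.45 in parts 6 and 7 (2.95 above part 5, limma adjusted p = 0.00067). Tagln2, an actin-binding protein, read 7.11, 6.68 and 6.74 in part 5 and 7.87 to 9.49 in parts 6 and 7 (2.00, adjusted p = 0.000229). Tbx22, a T-box gene, read 4.03, 4.64 and 4.31 in part 5 and 5.15 to 7.22 later (1.83, adjusted p = 0.000214). Serpina3a, a serine protease inhibitor, held 7.93, 8.24 and 7.72 in part 5 and then lay between 5.21 and 6.40, down by 1.95 (adjusted p = 0.000192). Dll1 still read 8.45, 10.21 and 10.09 in part 5, a range inside that of parts 3 and 4 but for the lowest array, and was 2.16 lower in parts 6 and 7 (adjusted p = 0.00439). Hes7 read 8.68, 8.42 and 6.55 in part 5, so that 1 array of 3 was close to parts 6 and 7 and the others were within the range of parts 3 and 4.

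Within the middle side, parts 3 and 4 differed in 6 genes, 5 higher in part 4 (0.0412%) and 1 lower (0.00824%), with 643 at an unadjusted p under 0.05. Fgf18, an FGF ligand, read 5.79, 4.96 and 6.26 in part 3 and 8.96, 7.87 and 8.88 in part 4 (2.90, limma adjusted p = 0.00855). Arg1, arginase, read 7.13, 6.24 and 7.74 and then 9.61, 8.80 and 10.14 (2.48, adjusted p = 0.0116). Both were higher in parts 6 and 7 than in parts 3 and 4, by 1.93 and 2.67. Meox1 was 2.28 higher, Add3, a membrane skeleton protein, 1.17 higher and Ccng2, a cyclin of growth arrest, 0.89 higher in part 4, and Cd40, a receptor of the tumour necrosis factor family, was 1.12 lower. The count was 0 without replicate 1 and 1 without replicate 2.

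Within the other side, no gene passed between parts 6 and 7 (0.0%), with 581 at an unadjusted p under 0.05 and a smallest adjusted p of 0.691 by limma. This count changed when the array resembling part 6 was left out. Without replicate 2 of part 7, a setting chosen after the data were seen, 62 genes passed, 23 higher in part 7 and 39 lower. Leaving out an array because it resembles part 6 widens this difference by itself. No other single array was left out of this comparison, so the 62 have nothing to be set against. Without replicate 2 of every part 14 passed, and without replicate 1 or replicate 3 of every part 0 passed. The genes named next were also chosen after their values were seen, so their p-values are no independent support. Myf5, the earliest muscle determination gene, read 4.28, 4.35 and 4.97 in part 6 and 7.42 and 7.78 in replicates 1 and 3 of part 7, but 4.24 in replicate 2 (3.06 ± 0.31, SE, without that array, limma adjusted p = 8.16e-05). Nrarp, a Notch target and inhibitor, read 10.99, 11.02 and 10.85 in part 6 and 8.2, 11.02 and 8.21 in part 7. Notch1 read 11.85, 11.72 and 11.96 and then 10.19, 11.84 and 10.22. In each of these genes replicate 2 of part 7 had the part 6 value. Without that array Nrarp in part 7 differed from part 6 by -2.75 and Notch1 by -1.64 (limma adjusted p = 4.18e-05 and 0.00477), and Meox2 was 1.61 higher (adjusted p = 0.00871).

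Averaging parts 6 and 7 combined different levels for these genes. Between the sides Myf5 did not pass with all arrays (0.45 ± 0.41, SE, limma adjusted p = 0.635) and was higher in parts 6 and 7 without replicate 2 of part 7 (1.01 ± 0.21, SE, limma adjusted p = 0.00376). Notch1 passed in neither fit, at 0.40 ± 0.24 (SE) with that array and 0.12 ± 0.17 (SE) without it. Of 430 list members tested, marker lists included, 18 had another call between the sides without that array, and 22 of the 37 lists held none of them. The most in a list was 3 of 15, in the somite and paraxial list, where Foxc2 lost its call (0.74 with the array, 0.66 without it, limma adjusted p = 0.06), Myf5 became higher and Pcdh19, a protocadherin, became lower (-0.84 with the array, -1.23 without it, limma adjusted p = 0.00139). Of the other list members named in the text, Sox5 (0.67, then 0.49) and Jag1 (0.82, then 0.63) lost their calls as higher genes. Hoxc4 (-1.15, then -0.97), Etv5 (-1.10, then -0.89), Emcn (-1.13, then -0.99) and Osr1 (-0.98, then -1.02) lost theirs as lower genes, with adjusted p from 0.0506 to 0.119 by limma over these 6.

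The step from parts 1 and 2 to parts 3 and 4 was set beside the step to parts 6 and 7. The steps share parts 3 and 4, so chance error there moves both in opposite directions. In the first step 199 genes were higher in parts 3 and 4 (1.64%) and 276 lower (2.27%). The difference between the steps, tested in the same fit, passed in the upward direction for 157 genes (1.29%) and in the downward direction for 152 (1.25%). Late rises included Stum, which differed by 0.33 in the first step and by 4.23 in the second (difference of the steps 3.91, limma adjusted p = 7.57e-10), and Uncx, by 0.57 and 4.32 (3.75, adjusted p = 3.32e-05). Foxd1 was high in part 1 as well, at 6.84, 9.03 and 8.45, and low in part 2, at 5.18, 5.16 and 6.16. Its steps were -0.40 and 3.47.

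Some somite genes differed more in the first step. Meox1 differed by 4.08 in the first step and 1.86 in the second (-2.22, limma adjusted p = 0.0107), and Foxc2 by 2.67 and 0.74 (-1.93, adjusted p = 0.0021). Aldh1a2 went by 2.96 and 1.91, and the difference of its steps did not pass (-1.06, adjusted p = 0.18). Tcf15 went by 1.71 and 1.98 (0.27, adjusted p = 0.92).

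Several genes peaked in the middle and turned down. Serpina3a rose by 2.5 to parts 3 and 4 and fell by 1.82 after them (difference of the steps -4.31, limma adjusted p = 1.12e-06). Bmp2, a BMP ligand, went by 1.85 and -1.97, to between 6.76 and 8.43 in parts 3 and 4 and then to between 4.71 and 6.15 in parts 6 and 7 (-3.82, adjusted p = 0.000346). Zfp703, a zinc finger corepressor, rose by 2.11 and then fell by 1.40 (-3.51, adjusted p = 0.000407). Both steps of these 3 genes passed the test. Cyp26a1 and Dkk1 had the largest falls of the first step. Cyp26a1 read 9.07, 11.28 and 11.58 in part 1 and 5.02 to 5.38 in parts 3 and 4, and Dkk1, a Wnt antagonist, 7.44 to 9.14 in part 1 and 4.30 to 6.12 in parts 3 and 4. Their later differences of -0.45 and -0.55 did not pass.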

How the data were processed

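The labels' protocols describe RNA amplified in 2 rounds, which shortens transcripts towards the 3' end, and Affymetrix arrays, 3 for each of 7 parts. Each probe set has 1 linear intensity per array, deposited as made by the authors. The submitters' processing notes name MAS5, and give neither a version nor a scaling target. Of 45101 probe sets, 34945 had 1 gene symbol, 34741 of them found in the RefSeq table of GRCm38.p6. Each of 18193 genes was taken from its probe set with the highest mean, as log2(value + 16). Testing was limited to the 12141 genes that reached 13.3, the median of all values, in at least 3 arrays.

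The limma package (3.58.1, R 4.3.3) was fitted with 1 coefficient for each part, a mean-variance trend, 14 residual degrees of freedom and no covariate, with Benjamini-Hochberg adjustment over all genes tested at 0.05. Errors are the SE of the fit. The number of arrays limits the precision. The fit was checked on simulated data. The arrays of each side were taken by the part number in their titles, and the gene lists and markers were chosen with earlier results of these data known. Genes named are the 15 largest rises and 15 largest falls of one sign in all part pairs and replicate numbers, up to 4 members of a list past the threshold and 2 not past it, up to 5 each way for the other contrasts, genes that make up counts of 5 or fewer, and 16 preset PSM genes. Other list members, Myf5, Nrarp, Notch1 and the promoters were chosen outside the rule, after their values were seen. The alternatives changed the pseudocount (1 or 64), the filter (none, or the upper quartile), the normalization (quantile, median), the variance trend, array weights, the probe set rule, the arrays in the fit (12 only) and the replicate number as a block, or left out replicates and arrays.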

Additional observations from a re-analysis of the deposited data

Results flagged for a closer look

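In 3 of 76 groups of 6 arrays, over 38 genes, 1 array lay apart from the other 5 by more than Dixon's critical value for 6 samples allows; chance gives about 1 group in 20. Tbx18 was at 7.14 in replicate 2 of part 4, against 4.11 to 4.82 in the other arrays of parts 3 and 4 (0.765 of the range). Cer1 was at 5.76 in replicate 1 of part 4, against 4.30 to 4.62 in the others (0.780). Hoxd13 was at 7.04 in replicate 2 of part 7, against 4.5 to 5.02 in the other arrays of parts 6 and 7 (0.795), and this was the array that resembled part 6 over all genes.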

How the results depend on the processing

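Of the 1066 genes past the threshold, none changed sign in any alternative fitted by gene in which it was tested. No named gene changed sign where it passed in the main fit or in the alternative. Named genes that passed in neither could change sign, as Lfng did without replicate 2 of part 7 (0.20, then -0.07). The count of genes stayed between 750 and 1329 under the other settings with all replicate numbers (1434 probe sets where each was tested alone), and between 540 and 1043 with a replicate number or array left out. With the replicate block it was 1803 (fixed) and 1666 (random, correlation 0.242), and all 1066 genes were kept in both. With the fixed replicate block the other counts were 502 for part 5 against parts 3 and 4, 534 for parts 6 and 7 against part 5, 34 for part 4 against part 3, 885 for parts 3 and 4 against parts 1 and 2, and 594 for the difference of the steps. The labels do not say that numbers pair the parts. Of 12 same-numbered pairs across the sides 10 correlated above 0.1, the lowest at 0.0857, and 10 of the 12 arrays correlated best with their own number. The block is given only as an alternative, here and for some lists above. With arrays left out, those counts ran from 36 to 163, 33 to 119, 0 to 4, 149 to 387 and 114 to 246, that for part 7 against part 6 from 0 to 62, and genes with no overlap from 1208 to 1564, because fewer arrays overlap less. With a pseudocount of 64, 10 genes differed between parts 4 and 3. The cause of the other shifts was not tested. Low signals also limit the comparison: a gene near 4 on this scale has no measurable lower level.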
